A study of Mus musculus with 24 samples.

Results

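The proteasome genes measured here are the 43 genes with a probeset of 1 gene symbol beginning with Psma, Psmb, Psmc, Psmd, Psme, Psmf or Psmg and a mean signal of at least 32 over the 24 arrays, leaving out the inducible Psmb8, Psmb9, Psmb10, Psme1 and Psme2. They are 43 of the 12393 genes with such a probeset, of which 7530 reached that mean, and each gene was read from its probeset of highest mean signal. Psma8, the alpha subunit of germ cells, had a mean signal of 6.75 and lay outside the rule. The name rule also took in 2 genes that are no proteasome subunit, Psmc3ip, a partner of meiotic and homologous recombination, and Psme3ip1, a binding partner of the Psme3 cap, so that 41 proteasome genes remained. All 43 passed the filter for testing, which asked for a signal of at least 32 on all 3 arrays of at least 1 of the 8 groups. The rule used names and the mean signal, and no difference between groups.

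The thymocytes came from healthy female mice of 6 to 8 weeks of 2 strains that share the k haplotype of the major histocompatibility complex, C57BL10.H2k (B10) and the autoimmune non-obese diabetic strain (NOD). All mice carried the 3A9 TCR transgene, a T cell receptor against hen egg lysozyme, and those called TCR insHEL also made that lysozyme under the insulin promoter, which in the thymus depends on Aire in medullary epithelial cells. PreS cells were CD4+CD8+CD69- thymocytes without the 1G12 clonotype of the receptor, sorted from both kinds of mice (3 arrays each, 6 per strain together), while S+ and S- cells were CD4+CD8low CD69+ and 1G12+ from TCR mice and from TCR insHEL mice, respectively (3 arrays each). Each array carried a pool of mRNA from sorted cells, amplified in 2 rounds of in vitro transcription, so one transgenic receptor stands for positive (S+) and negative (S-) selection and the spread between pools is the error of every comparison.

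The 26S proteasome is the protease that degrades proteins tagged with ubiquitin. Its barrel-shaped 20S core has outer rings of alpha subunits, which gate the entrance, and inner rings of beta subunits, of which Psmb5, Psmb6 and Psmb7 cleave peptide bonds, and the 19S cap binds the tagged protein through its lid and base and unfolds it with a ring of ATPases. In thymocytes, as in other cells answering cytokines, the 3 cleaving subunits can be replaced by Psmb8, Psmb9 and Psmb10 to form the immunoproteasome, which trims peptides for presentation by class I molecules.

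The sorted populations were checked against markers of their stage. Against PreS cells of the same strain, Ccr7, the chemokine receptor of maturing thymocytes, rose by between 3.67 (B10 S-) and 4.95 (NOD S-) on the log2 scale. Rag1, a recombinase of double positive cells, fell, with differences between -3.22 (B10 S+) and -1.83 (NOD S+). Both were called in the 4 populations (limma, adjusted p under 0.05). Of 4 single positive markers tested, 3 were called higher in each population. Cd5, another of them, gave 637.6, 579.9 and 1696.1 in NOD S+ cells, within the 575.5 to 1728.9 of NOD PreS cells. In B10 S- cells, sorted as CD4+CD8low, the signals of Cd4 were 180.8, 353.5 and 413.4. They overlapped the 205.8 to 368.4 of B10 PreS cells, which were sorted as CD4+ too, and lay below the 679.5 to 1256.6 of B10 S+ cells. Cd8a gave 621.1, 402.6 and 436.7 in B10 S- cells, below the 1808.8 to 3283.4 of B10 PreS cells. Of 5 B cell and 7 thymic epithelial markers with a probeset 3 and 3 passed the filter, and their summed signals reached at most 492.0 and 293.9 on any array. All 6 markers of dendritic cells and macrophages with a probeset passed it, and their summed signal reached 1312 in B10 S- and 1658 in NOD S+ cells. The red cell markers Hba-a1 and Alas2 did not pass the filter, but their summed signal reached 298.8 in B10 PreS cells. Alas2 gave 126.5, 9.7 and 271.4 on the B10 PreS TCR insHEL arrays. Cd69, by which the cells were sorted, and Lck, Trac, Clec9a and Hbb-bs were among the markers not analysed here.

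Some arrays stood apart by the integrity of their control transcripts. The ratio of 3' to 5' signal of the Gapdh control was 57.2 and 40.9 in NOD S+ replicates 1 and 2, against 3.63 in replicate 3, 28.9 in NOD PreS TCR insHEL replicate 1, 29.4 in B10 S+ replicate 1 and between 2.19 and 16.6 on the other 19 arrays. For beta-actin, the same 3 NOD arrays were highest, at 55.7, 30.6 and 32.5, and B10 S+ replicate 1 had 8.89. Results that rest on these arrays are given with and without the 3 NOD arrays. In these bulk samples, fewer cells of a type and less RNA per cell cannot be told apart, and every value is relative to the other transcripts of its array.

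The members' signals, which are not levels to set against each other between probesets, spanned a wide range. In B10 PreS cells the mean signals of the members ran from 91.0 for Psmd10, a chaperone of base assembly known as gankyrin, to 2521 for Psma6 of the alpha ring, and in NOD PreS cells from 96.3 for Psmd7 of the lid to 3406, again for Psma6. All 43 were at 32 or more on every array in B10 PreS, B10 S-, NOD PreS and NOD S- cells, 42 were so in B10 S+ and 41 in NOD S+. The genes below 32 on an array were Psmc3ip in both S+ groups and Psmd7 in NOD S+.

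The level of the family was read on each array first. Relative to the PreS mean of its own strain (log2 of standardized signal), the median of the 43 genes was -0.52, -0.37 and -0.18 on the B10 S+ arrays and -0.16, -0.06 and -0.13 on the B10 S- arrays, where the 6 B10 PreS arrays ranged from -0.19 to 0.31. It was -1.01, -0.84 and -0.35 on the NOD S+ arrays and -0.42, -0.49 and -0.60 on the NOD S- arrays, where the 6 NOD PreS arrays ranged from -0.35 to 0.35. The NOD S- arrays thus all lay below the PreS arrays of their strain, the B10 S- arrays lay within the range of theirs, and in each S+ group replicate 3 reached into the PreS range.

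**Figure D1:**
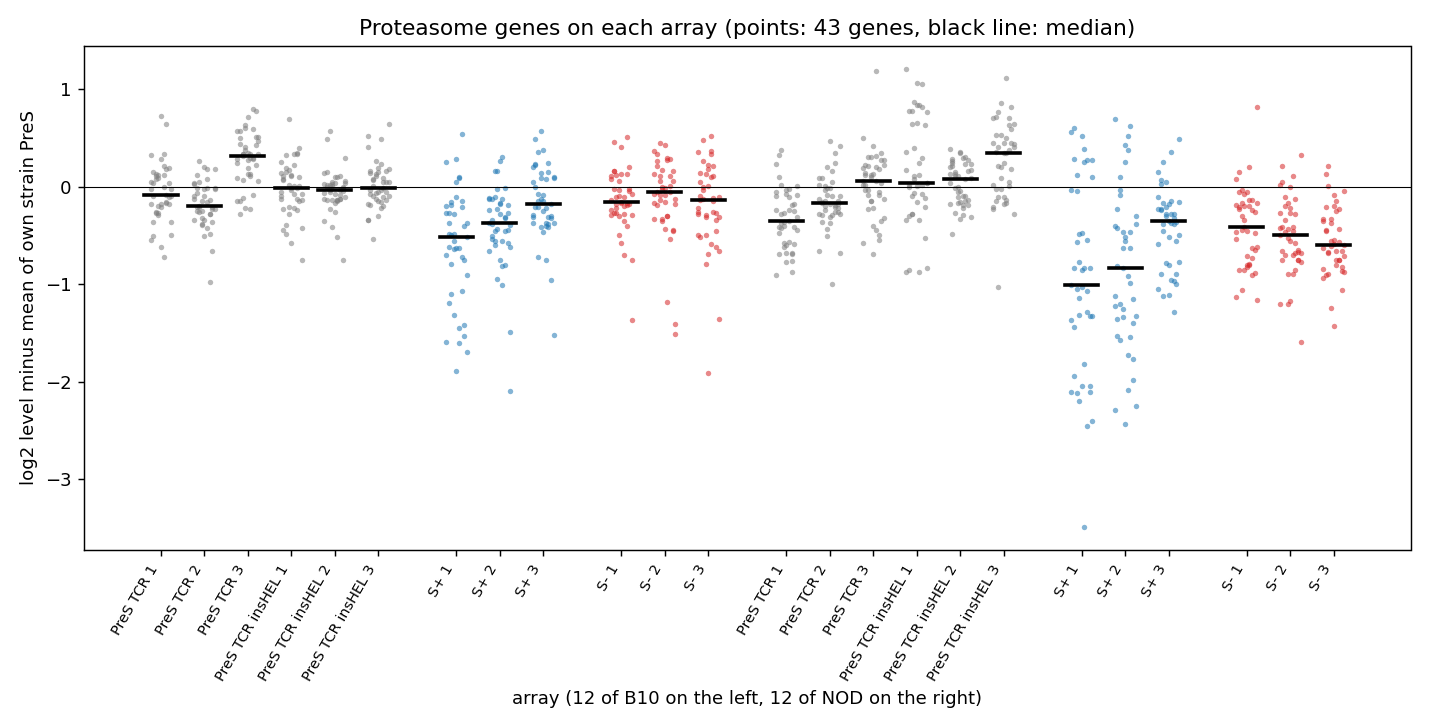
Log2 level of each of the 43 genes minus its mean over the PreS arrays of the same strain (vertical axis), on each of the 24 arrays (horizontal axis, B10 left and NOD right); points are genes and black lines are medians. The NOD S+ replicates 1 and 2 have the lowest medians, -1.01 and -0.84, and also the widest spread among genes, with SDs of 0.99 and 0.83.

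Of 24 arrays, the 2 with the lowest medians were those with the highest 3' to 5' ratios. Their members were also scattered more widely (SD over the 43 genes of 0.99 and 0.83, against 0.42 in NOD S+ replicate 3), and 22 and 19 of the genes were below -1, against 4 in replicate 3. NOD PreS TCR insHEL replicate 1, at a ratio of 28.9, had a median of 0.04 with an SD of 0.55. The part of RNA integrity in the medians was not tested.

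**Figure D2:**
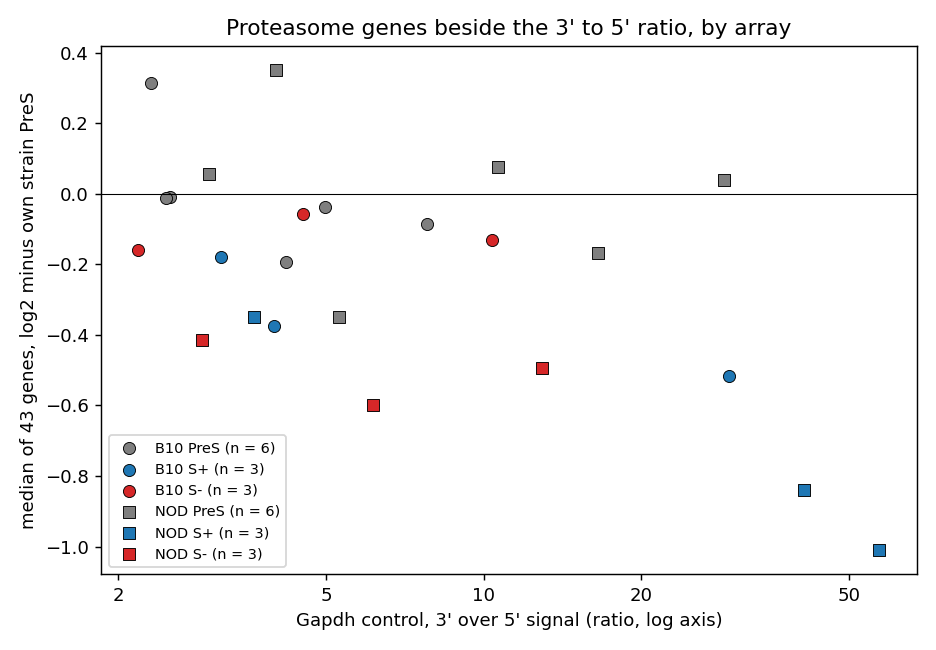
Median log2 level of the 43 genes relative to the PreS cells of the same strain (vertical axis) against the Gapdh 3' to 5' ratio (horizontal log axis) on each array; circles are B10 and squares NOD, in grey for PreS, blue for S+ and red for S-. The 3 NOD S- arrays, at ratios of 2.90, 12.9 and 6.14, have medians of -0.42, -0.49 and -0.60, and the NOD S+ array of ratio 3.63 has -0.35.

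The comparison of S+ with PreS cells asks which genes change as thymocytes are positively selected. In B10 S+ cells 5 of the 43 members were lower and none higher (limma, Benjamini-Hochberg adjusted p under 0.05), where 9.44% of the 12838 probesets were called lower and 7.37% higher. A share of 5 in 43 is close to that background. The called genes were Psmc3ip and, among the 41 proteasome genes, 4 of the 19S cap: the base ATPases Psmc1 and Psmc3 and the lid subunits Psmd12 and Psmd13. The estimates leaned one way, with 41 of 43 below 0 and a median of -0.30 against 0.04 over all probesets. At an unadjusted p under 0.05, 12 were lower and 0 higher. The share of all probesets at that unadjusted threshold is not given here, so the 12 cannot be set against a background.

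Psmc1 and Psmc3 are ATPases of the ring that threads substrates into the core. The signal of Psmc1 was 172.5, 359.5 and 310.5 on the 3 B10 S+ arrays and 380.9 to 639.1 (median 530) on the 6 B10 PreS arrays, without overlap. The log2 difference was -0.97 (standard error 0.24, limma adjusted p = 0.0127). Psmc3 had signals of 464.5, 834.8 and 1025.6 in S+ and of 1045.2 to 1726.9 (median 1237) in PreS cells, again without overlap, and a difference of -0.77 (standard error 0.24, limma adjusted p = 0.0457). Of the 6 ATPases all were below 0, with a median of -0.73 and Psmc2 nearest to 0 at -0.05.

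The lid holds the deubiquitinase Psmd14 and scaffold subunits, among them Psmd12 and Psmd13. Psmd12 gave 265.4, 322.4 and 419.1 in B10 S+ cells and 448.4 to 669.0 (median 562) in PreS cells, a difference of -0.76 (standard error 0.20, limma adjusted p = 0.0163). Psmd13 gave 180.6, 434.2 and 266.5 against 394.4 to 720.5 (median 494.5), a difference of -0.92 (standard error 0.26, limma adjusted p = 0.0274). The groups did not overlap for Psmd12, while replicate 2 of S+ lay within the PreS range for Psmd13. The further probeset of Psmd13 had -0.60 at a limma adjusted p = 0.050 and missed the threshold. Psmd11 was nearest to 0 of the 8 lid subunits, at 0.00, and Psmd14 was at -0.50.

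In the 20S core none of the 14 subunits passed the test in B10 S+ cells, and all 14 estimates were below 0. The 7 alpha subunits lay between -0.48 (Psma1) and -0.05 (Psma4) on the log2 scale with a median of -0.20, the 3 cleaving subunits at -0.34 (Psmb5), -0.57 (Psmb6) and -0.91 (Psmb7), and the 4 other beta subunits between -0.40 and -0.05. Psmb7, the trypsin-like subunit, had signals of 574.3, 1277.9 and 2074.8 in S+ and 1480.5 to 3737.2 in PreS cells, so its large estimate came with a standard error of 0.44. The chaperones that assemble the core, Psmg1 to Psmg4, lay between -0.60 and -0.12, and Psmd10 was one of the 2 members above 0, at 0.18, while Psmd9, another base chaperone, was at -0.46. Psmd1, a scaffold of the base, had -0.52 and the ubiquitin receptor Psmd4 had -0.08. Of the other caps, Psme3 had -0.59 and Psme4 -0.17.

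Psmc3ip had the lowest estimate of the 43 in B10 S+ cells. Its signals were 36.6, 28.4 and 39.4 in S+ cells and 96.9 to 151.3 (median 104) in PreS cells, a difference of -1.77 (standard error 0.23, limma adjusted p = 1.1e-04), and its S+ level was near the filter of 32. It was lower in S- cells too, at 45.1, 44.3 and 80.8 (-1.15, standard error 0.23, limma adjusted p = 0.0048). Neither group overlapped with PreS cells, which served as the same 6 arrays in both comparisons. Psme3ip1 had -0.08 in S+ cells.

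The calls in B10 S+ depended on replicate 1, the array with a Gapdh ratio of 29.4. Without it 1 member, Psmc3ip, was called, and the median was -0.25. Of 21 alternatives, Psmc1 kept its call in 19, Psmd12 in 18, Psmd13 in 16 and Psmc3 in only 7. S+ and PreS cells shared 2 hybridization days, on which the median differences of the members were -0.07 (day 6, 24 of 43 below 0) and -0.30 (day 8, 38 of 43). On days 6 and 8 the differences were -0.61 and -0.78 for Psmc1, -0.25 and -0.44 for Psmc3, -0.52 and -0.69 for Psmd12 and -0.95 and -0.67 for Psmd13. With hybridization day as a block only Psmc3ip was called.

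Genes of the cell cycle moved with the same contrast. Of 12 cycling-cell markers with a probeset 11 were lower in B10 S+ and 10 in B10 S- than in PreS cells, and their summed signal was 14893 to 18174 in B10 PreS, 4302 to 5305 in S+ and 7247 to 7868 in S- cells. In NOD the sums were 13898 to 17323, 6522 to 7996 and 5828 to 7598, with 7 markers lower in S+ and 10 in S-. The part of cycling cells in the lower proteasome signals was not tested.

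**Figure D3:**
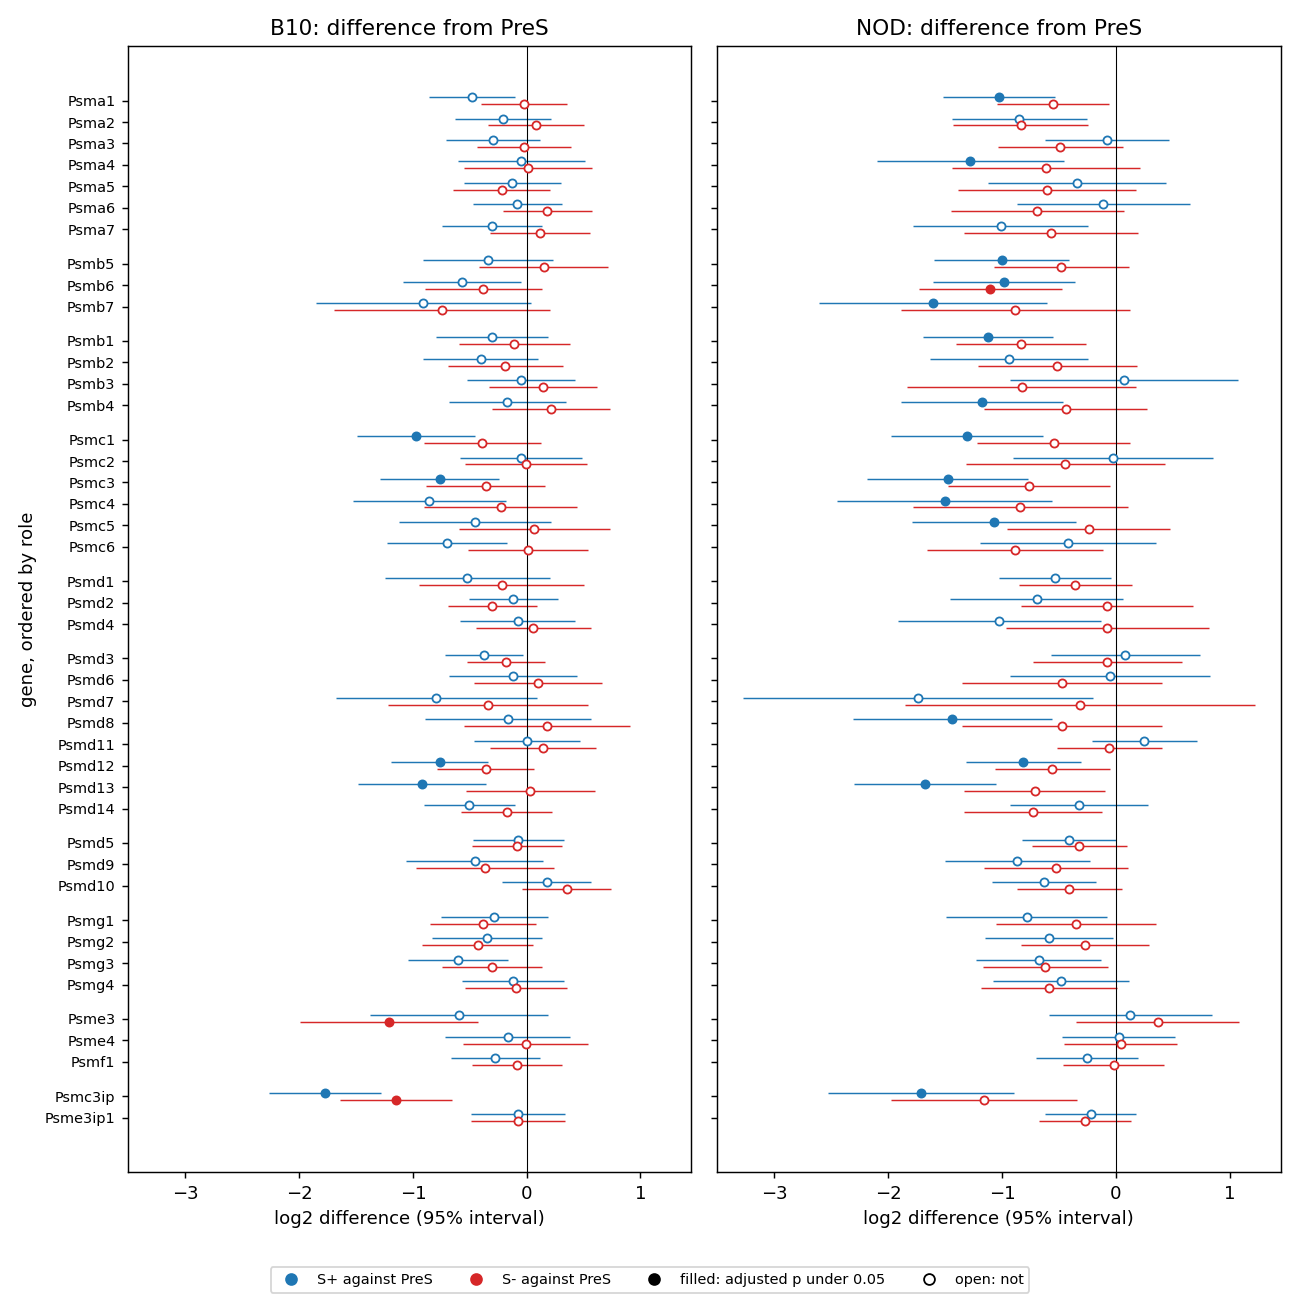
Log2 differences of the 43 genes from PreS cells of the same strain (horizontal axis) with 95% intervals from limma, ordered by role from the alpha ring (top) to the 2 genes that are no subunit (bottom); blue is S+, red is S-, and filled points passed an adjusted p of 0.05. In B10 most points lie between -1 and 0, and in NOD the S+ estimates spread from -1.74 to 0.25.

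In B10 S- cells, which met the lysozyme in the thymus, 2 members were lower than in PreS cells and 0 higher (limma, adjusted p under 0.05), where 6.8% of probesets were called lower and 4.42% higher. They were Psmc3ip and Psme3, a cap of the nuclear proteasome that works without ATP. Of the 43 members 28 were below 0 and the median was -0.09, against 0.01 over all probesets. Psme3 had signals of 157.1, 92.9 and 111.3 in S- and 150.3 to 405.8 (median 257) in PreS cells, a difference of -1.21 (standard error 0.36, limma adjusted p = 0.0474) with overlap. Its probesets disagreed: the further one, of lower signal, had -0.16 in S- (limma adjusted p = 0.70) and -0.93 in S+ (limma adjusted p = 0.0088), where the chosen one had -0.59 (limma adjusted p = 0.31). On the shared day 8 the chosen probeset of Psme3 differed by 0.00 and Psmc3ip by -1.24, and with day as a block neither was called. Psme3 kept its call in 7 of 21 alternatives and Psmc3ip in 20. The alternative without the 3 NOD arrays of high ratio, among those kept, could not change a fit of B10. The summed signal of the dendritic cell and macrophage markers was 276 to 792 in B10 PreS and 258 to 1312 in B10 S- cells, highest in S- replicate 3 (Lyz2 661.6 and Csf1r 346.5), and 0 of the 6 were called in limma. Without that replicate Psmc3ip was the 1 member called.

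The direct comparison of S- with S+ cells asks what the encounter with the self antigen changes. In B10 none of the 43 members passed the adjusted threshold in limma, where 1.67% of probesets did. At an unadjusted p under 0.05, 4 members were higher in S- and 0 lower, where 11.7% of probesets passed in either direction. With the contrast t-test of the study's methods 4 members passed unadjusted. The study asks for an overall F-test before that t-test, of which no result is given here. The estimates were above 0 for 37 of 43 with a median of 0.22, against -0.01 over all probesets. Of the 12 cycling-cell markers 5 were higher in S- than in S+ cells and 0 lower, with a median of 0.99, and their part in the result was not tested. The 4 were Psmd13 at 0.95, the ATPase Psmc6 at 0.71, Psmc3ip at 0.62 and the alpha subunit Psma1 at 0.46, with limma adjusted p between 0.17 and 0.39.

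For these 4 the groups did not overlap. They were chosen by their p on the same arrays, so the lack of overlap adds no separate support. The signal of Psmd13 was 603.0, 575.0 and 439.6 in B10 S- and 180.6, 434.2 and 266.5 in B10 S+ cells, with the 439.6 close to the 434.2. That of Psmc6 was 429.4, 411.4 and 552.3 against 264.1, 306.7 and 276.7. On the 2 days that both populations shared, the median over the members was 0.32 (day 1) and 0.31 (day 8), in the same direction as over all days.

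In NOD S+ cells 15 members, 14 of them proteasome genes, were lower than in PreS cells and 0 higher (limma, adjusted p under 0.05), where 8.66% of probesets were called lower and 6.13% higher. The median of the 43 was -0.78, against 0.02 over all probesets, and 38 were below 0. At an unadjusted p under 0.05, for which the share of all probesets is not given here, 26 were lower. The arrays of high 3' to 5' ratio were NOD S+ replicates 1 and 2 and NOD PreS TCR insHEL replicate 1. Without them the median was -0.31. That fit set a single S+ array against 5 PreS arrays, with its spread taken to be that of the other groups. Fewer arrays and lower ratios therefore cannot be told apart in it. With the ratio as a covariate 15 members were again called, but Psmb7 and Psmc5 were not among them.

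The 14 proteasome genes called with all arrays spanned core and cap. In the core they were the alpha subunits Psma1 (-1.03) and Psma4 (-1.28), the cleaving subunits Psmb5 (-1.002), Psmb6 (-0.98) and Psmb7 (-1.61), and Psmb1 (-1.12) and Psmb4 (-1.18). In the cap they were the ATPases Psmc1 (-1.31), Psmc3 (-1.48), Psmc4 (-1.50) and Psmc5 (-1.07) and the lid subunits Psmd8 (-1.44), Psmd12 (-0.81) and Psmd13 (-1.68). Their limma adjusted p ran from 0.0028 (Psmd13) to 0.0468 (Psmc5). Psmd7, a lid subunit, had signals of 9.3, 22.7 and 113.3 against 39.3 to 189.4, and its -1.74 came with a standard error of 0.71 and was not called (limma adjusted p = 0.12).

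All 3 cleaving subunits were among them. Psmb5, the chymotrypsin-like subunit, had signals of 798.2, 569.2 and 1381.4 in NOD S+ cells against 1452.5 to 2352.5 (median 1575) in PreS cells, without overlap. Psmb6, the caspase-like subunit, had 855.1, 1180.9 and 1360.1 against 1593.3 to 3737.4 (median 2080), again without overlap. For Psmb7 the signals were 498.1, 385.1 and 1694.5 against 1316.2 to 2965.0 (median 2209), with replicate 3 inside the PreS range. Without the 3 arrays of high ratio the differences were -0.40 for Psmb5, -0.60 for Psmb6 and -0.22 for Psmb7.

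In the 4 subunit genes also called in B10, replicate 3 of S+, the array of low ratio, lay closer to PreS cells than the other two. Psmd13 gave 114.0, 117.4 and 231.3 against 269.5 to 591.2 (median 434.8), so that all 3 arrays were below the PreS cells. Psmc3 gave 260.6, 324.4 and 775.5 against 851.0 to 1678.5 (median 958), and Psmd12 gave 241.6, 253.1 and 395.6 against 416.7 to 634.9 (median 444.6). Psmc1 gave 121.6, 128.1 and 324.9 against 278.7 to 503.0 (median 383), where replicate 3 lay above the lowest PreS signal, that of the insHEL array of high ratio. Without the 3 arrays the differences were -1.10 for Psmd13 (limma adjusted p = 0.12), -0.60 for Psmc3, -0.40 for Psmd12 and -0.44 for Psmc1.

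Other members had estimates near 0 or above it, up to 0.25 for Psmd11 of the lid and 0.13 for Psme3. Psmb3 gave 3876.6, 4300.6 and 1519.1 in NOD S+ cells, with the arrays of high ratio above replicate 3, against 1771.5 to 6388.1 in PreS cells, and a difference of 0.07. Psmc2 likewise gave 2830.3, 3605.2 and 1405.0 against 1708.0 to 5003.6, a difference of -0.02. Further probesets of the same genes differed from the chosen ones: that of Psmc2 had -1.15 (limma adjusted p = 0.014), 1 of Psma6 had -1.31 (limma adjusted p = 0.0036) where the chosen one had -0.11, and that of Psma7 had -1.64 (limma adjusted p = 0.013) where the chosen one had -1.01. Conversely, the further probesets of Psmb1 had 0.37 and -0.77, that of Psmb4 -0.33 and that of Psmc4 -0.26, and none of these was called. Of 25 further probesets of 19 members 5 were lower in NOD S+ and 18 had the sign of the chosen one.

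On day 3, the only day with NOD S+ and NOD PreS arrays, the median was -0.75 with 36 of 43 below 0. Both arrays of that day had raised Gapdh ratios, 40.9 for S+ and 16.6 for PreS. With day as a block 0 members were called in limma, and 5 of all 12838 probesets were. Markers of dendritic cells and macrophages moved with this comparison: 3 of 6 were higher in NOD S+ (Csf1r by 2.37, Adgre1 by 1.12 and Itgax by 1.07 on the log2 scale), and their summed signal was 745 to 1658 in S+, 324 to 712 in PreS and 351 to 646 in S- cells; Csf1r gave 654.4, 439.6 and 182.4 in S+ cells, and none of the 6 was at 0 there. Their part in the result was not tested.

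In NOD S- cells 41 of the 43 members were below 0, with like medians on the 3 arrays. Psmb6 was the 1 member called lower, and 0 were higher (limma, adjusted p under 0.05), where 5.68% of probesets were lower and 5.51% higher. The median was -0.51, against 0.02 over all probesets. At an unadjusted p under 0.05, for which the share of all probesets is not given here, 11 were lower. Psmb6 gave 1223.8, 1017.6 and 1022.7 against 1593.3 to 3737.4 in PreS cells, without overlap, and a difference of -1.10 (standard error 0.29, limma adjusted p = 0.0269). Without the 3 arrays of high ratio, of which 1 is a NOD PreS array, 3 members were called lower, Psmb6 (-0.93), Psmd13 (-0.82) and Psmc3ip (-1.15), and the median was -0.48. S- and PreS cells of NOD shared no hybridization day, and a block of day, which then links them through S+ arrays alone, left 0 calls in limma among all probesets. Psmb6 was not called when any 1 of the 3 S- arrays was left out.

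By role, the alpha ring (median -0.60), the cleaving subunits (-0.88), the other beta subunits (-0.67) and the ATPases (-0.66) were lower in NOD S- than the base subunits without ATPase activity (-0.08) by their medians. The scaffolds Psmd1 and Psmd2 and the ubiquitin receptor Psmd4 had differences of -0.35, -0.08 and -0.08. The other caps and the inhibitor Psmf1 lay near 0 or above, Psme3 at 0.37, Psme4 at 0.04 and Psmf1 at -0.02. For Psme3 the further probeset was again different, at -0.82 (limma adjusted p = 0.024).

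**Figure D4:**
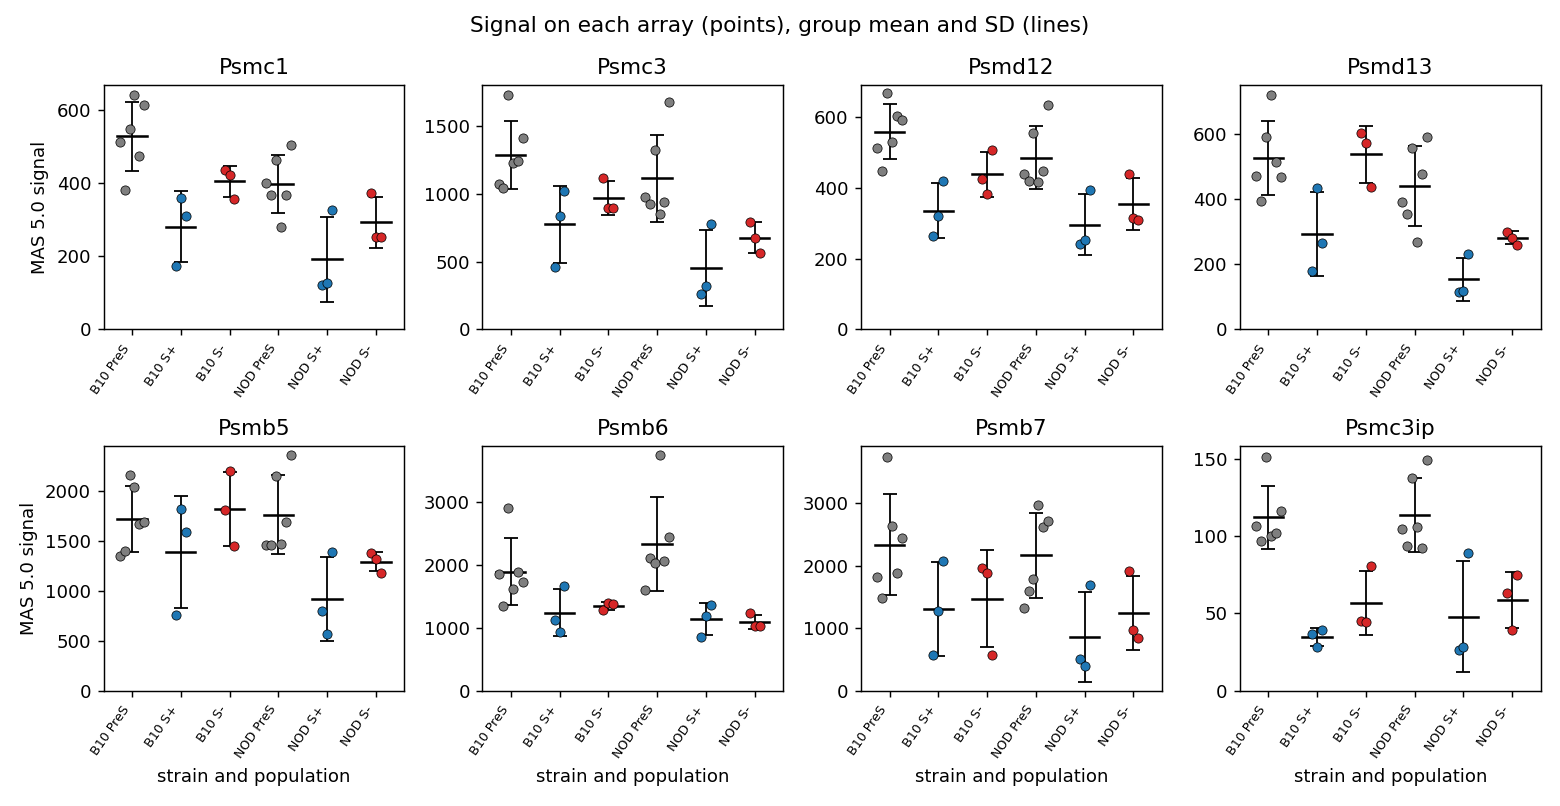
Deposited signal (vertical axes, linear from 0) of 8 genes by strain and population (horizontal axes); points are arrays (6 of PreS, 3 of S+ and 3 of S- in each strain), horizontal lines means and bars SDs. Psmb6 in NOD S- cells lies at 1223.8 or below on each array, under all NOD PreS arrays, and Psmc3ip in B10 S+ cells lies between 28.4 and 39.4.

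In NOD S- against S+ cells none of the 43 members, and 0% of all probesets, passed the adjusted threshold in limma. At an unadjusted p under 0.05, 2 members were higher (Psmd13 at 0.96 and Psmc5 at 0.83) and 0 lower, where 4.4% of probesets passed, and the methods' unadjusted t-test had 1. The signals of Psmd13 in S- cells were 301.1, 282.0 and 261.2, above the 114.0, 117.4 and 231.3 of S+ cells. The largest estimates were those of the lid subunits Psmd7 (1.42) and Psmd8 (0.96), at a limma adjusted p = 0.80 each. The median over the members was 0.25, and it was -0.10 without the 3 arrays of high ratio, which left a single S+ array. Within days it was 0.47 (day 2, with NOD S+ replicate 1) and 0.01 (day 5, with NOD S+ replicate 3).

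Psmc1, Psmc3, Psmd12, Psmd13 and Psmc3ip were called lower in S+ cells of both strains, which is 5 of the 5 called in B10 and 5 of the 15 called in NOD, with separate PreS arrays in each strain. The share of all probesets called lower in both strains is not given here. Arrays of high 3' to 5' ratio bear on both sets of calls. In B10 only Psmc3ip kept its call without S+ replicate 1. In NOD only Psmd13 kept its call without S+ replicate 1, and likewise without replicate 2. The promoters of these 5 genes are described because they were called in both strains with all arrays. RefSeq (GRCm38.p6) held a promoter window, 250 bases before to 50 after the start, for 36 of the 43 members; Psmb1, Psmb2, Psmb7, Psmc3, Psmd3, Psmd7 and Psmg2 had none. The ETS core CCGGAAG, or its complement CTTCCGG, was found in 14 of the 36 windows, and in 9.12% of all 27025 windows of that length. Shown are the 120 bases before the start of the 3 called subunit genes with an entry, at chr12:100110082-100110201, chr11:107479408-107479527 and chr7:140882274-140882393, each on the plus strand and 5' to 3', with the match in capitals; in Psmd13 its last letter is the first base after the start and is not shown.
Psmc1: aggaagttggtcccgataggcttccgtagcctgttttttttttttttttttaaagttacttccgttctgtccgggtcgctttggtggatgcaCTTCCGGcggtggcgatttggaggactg
Psmd12: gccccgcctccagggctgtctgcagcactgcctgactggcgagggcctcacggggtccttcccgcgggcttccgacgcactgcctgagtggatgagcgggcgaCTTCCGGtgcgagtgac
Psmd13: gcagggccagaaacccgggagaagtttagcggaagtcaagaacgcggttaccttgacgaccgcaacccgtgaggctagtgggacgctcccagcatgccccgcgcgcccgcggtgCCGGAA

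In Psmc1 and Psmd12 the match reads as the complement, beginning 28 and 17 bases before the start, and in Psmd13 it reads as written from 6 bases before it. The window of Psmc3ip held the same letters, so the match occurred in all 4 genes with an entry among the 5. Among genes called in no comparison it was present in Psmc2, Psmc6, Psmd11, Psmd2, Psmd4, Psmd6, Psme4, Psmg1 and Psmg3, and it was absent from the windows of Psma1, Psma4, Psmb4, Psmb5, Psmb6, Psmc4, Psmc5 and Psmd8, which were called in NOD S+ cells. The antioxidant response core TGACNNNGC, the kind of element that proteasome genes are known to use when the protease is inhibited, was found on either strand in 6 of 36 windows (Psmb5, Psmb6, Psmc6, Psmd12, Psmd9 and Psme4) and in 12.5% of all. The letters CCAAT were found in 13 of 36 and in 37.9% of all. These are matches of letters, on both strands, and some windows hold more than one motif.

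The cleaving subunits and their inducible counterparts were read side by side, each as a difference of its own probeset. In NOD S- against PreS cells Psmb6 was at -1.10 and its counterpart Psmb9 at -0.04 (limma adjusted p = 0.96), Psmb7 at -0.88 and Psmb10 at 0.49 (limma adjusted p = 0.25 and 0.40), and Psmb5 at -0.48 and Psmb8 at -0.24. In B10 S- cells the values were -0.38 and 0.31, -0.74 and 0.60, and 0.15 and -0.01, and none of these 6 genes was called in limma. In B10 S+ cells they were -0.57 and 0.14, -0.91 and 0.52, and -0.34 and -0.06, also without a call. In NOD S+ cells Psmb8 was lower (-1.09, limma adjusted p = 0.0314), while Psmb9 at -0.90 and Psmb10 at -0.08 did not pass. The difference between a subunit and its counterpart was not tested.

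**Figure D5:**
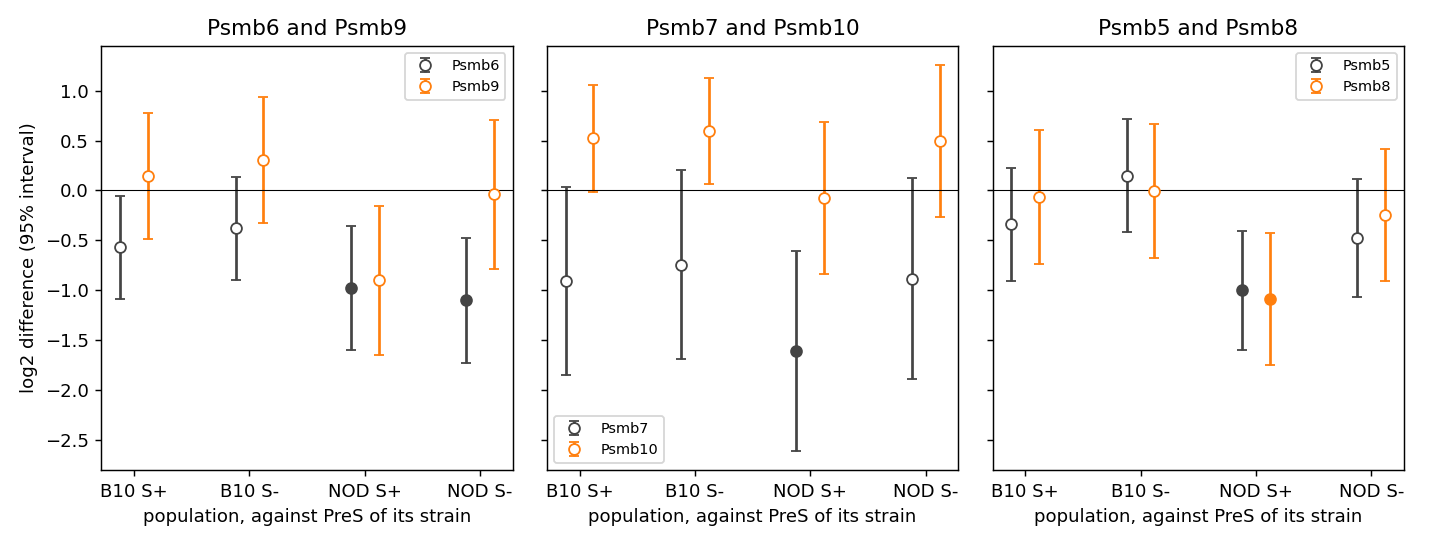
Log2 differences from PreS cells of the same strain (vertical axis, with 95% intervals from limma) of each cleaving subunit (dark) and its inducible counterpart (orange) in the 4 selected populations (horizontal axis); filled points passed an adjusted p of 0.05. In each panel for Psmb6 and Psmb7 the constitutive subunit has the lower estimate in all 4 populations, as in NOD S- with -1.10 beside -0.04 and -0.88 beside 0.49.

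Of 35 other genes of the pathway 24 had a probeset of 1 symbol and were tested. Uchl5, a deubiquitinase of the 19S cap, was the only one lower in B10 S+ cells (-1.26, limma adjusted p = 0.0073), with signals of 128.5, 300.2 and 204.6 against 335.6 to 570.3, and it was lower in NOD S+ cells too (-1.05, limma adjusted p = 0.0464). Psme1, a subunit of the cap induced by interferon, was the only one higher in B10 S- cells (0.74, limma adjusted p = 0.0478), with signals of 1846.1, 2321.8 and 1608.1 against 977.3 to 1356.3. Among all probesets, 9.44% were called lower in B10 S+ and 4.42% higher in B10 S- cells. With day as a block neither of these gene calls in B10 was kept (limma adjusted p = 0.054 for Uchl5 in S+ and 0.28 for Psme1 in S-). Both were kept with the 3' to 5' ratio as a covariate (limma adjusted p = 0.0043 for Uchl5 and 0.017 for Psme1). In B10 S- against S+ cells and in NOD S- against S+ cells none of the 24 passed.

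In NOD S+ cells 5 of the 24 were lower and 0 higher than in PreS cells, where 8.66% of all probesets were called lower. The 5 were Pomp, the chaperone that completes the core (-1.13), Psmb8 (-1.09), Uchl5 (-1.05), Ufd1, a partner of the unfoldase Vcp (-0.86), and Rad23b, a shuttle for tagged proteins (-0.82). Pomp gave 224.5, 263.0 and 411.6 against 422.8 to 848.1 in PreS cells, below all of them. Without the 3 arrays of high ratio, which left a single NOD S+ array, Pomp had -0.59, Psmb8 -0.17, Uchl5 -0.69, Ufd1 -0.66 and Rad23b -0.55. In NOD S- cells Ubqln4, another shuttle, was higher (0.90, limma adjusted p = 0.0395) and 0 were lower, where 5.51% of all probesets were called higher. With day as a block none of these NOD calls was kept, and Ubqln4 had a limma adjusted p = 0.9996. With the 3' to 5' ratio as a covariate 4 of the 5 S+ calls were kept. They were Pomp, Psmb8, Uchl5 and Ufd1 (limma adjusted p = 0.015, 0.034, 0.032 and 0.0073), while Rad23b missed the threshold (limma adjusted p = 0.060). Ubqln4 kept its S- call with that covariate (limma adjusted p = 0.033). Nfe2l1, the transcription factor that induces proteasome genes when the protease is impaired, was called in none of these comparisons (0.44 in B10 S+, 0.10 in B10 S-, 0.12 in NOD S+ and 0.57 in NOD S-). Psme2, Adrm1, Paaf1, Ubb, Rps27a, Uba1, Uba6 and Ddi2 were among the genes of the pathway not analysed here.

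The strains were compared within each population to ask which genes differ by the diabetes-prone background. In PreS cells 0 members differed in limma, where 4.13% of probesets did, and 1 was higher in NOD at an unadjusted p under 0.05 (Psma2 by 0.44), where 18.3% of probesets passed. The unadjusted t-test of the methods had 2. The largest estimates were those of Psmd7 (-0.68, limma adjusted p = 0.47) and Psmc2 (0.49, limma adjusted p = 0.36). The median of the members was 0.04, and within days 3, 4 and 6 it was -0.05, 0.19 and 0.35.

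In S+ cells 0 members differed between the strains in limma after adjustment, where 3.7% of probesets did. At an unadjusted p under 0.05, 10 were lower in NOD and 1 higher, where 19% of probesets passed in either direction, and the unadjusted t-test of the methods had 13. The largest estimates were those of the lid subunits Psmd7 (-1.63, limma adjusted p = 0.23) and Psmd8 (-1.37, limma adjusted p = 0.098). The median was -0.29, and it was 0.05 without the 3 arrays of high ratio. That fit set NOD S+ replicate 3 alone against the 3 B10 S+ arrays, among them replicate 1 with a Gapdh ratio of 29.4. Leaving out NOD S+ replicate 3, the array of low ratio, gave 13 calls, and leaving out B10 S+ replicate 1 gave 2. The share of all probesets called in these reduced fits is not given here. No day held S+ arrays of both strains, so day and strain cannot be told apart within S+ cells.

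In S- cells, where no array had a ratio over 12.9, 0 members differed in limma, where 2.32% of probesets did. At an unadjusted p under 0.05, 3 were lower in NOD and 1 higher, where 14.6% of probesets passed, and the unadjusted t-test of the methods had 5. The estimates were below 0 for 38 of 43 with a median of -0.34, and on day 1, which held 1 array of each strain, the median was -0.33. Psmd13 had 603.0, 575.0 and 439.6 in B10 S- cells and 301.1, 282.0 and 261.2 in NOD S- cells, a difference of -0.96 (95% interval -1.63 to -0.30, limma adjusted p = 0.13). Its groups did not overlap, and its further probeset was called lower in NOD (-0.98). Psme3 went the other way, with 157.1, 92.9 and 111.3 in B10 against 354.3, 241.0 and 192.3 in NOD (1.13, limma adjusted p = 0.18). With the 3' to 5' ratio as a covariate Psmd13 was the 1 member called.

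Among the pathway genes, Psmb8, Psmb9 and Psmb10 were lower in NOD than in B10 S+ cells (-1.32, -1.40 and -1.30, limma adjusted p = 0.0449, 0.0395 and 0.0429), and in S- cells, of the 24, only Pomp was (-1.22, limma adjusted p = 0.0429). Among all probesets, 3.7% were called between the strains in S+ and 2.32% in S- cells, in either direction. Pomp gave 400.9, 368.9 and 341.4 in NOD S- cells and 890.8, 1141.1 and 569.5 in B10 S- cells, without overlap. Psmb8 gave 390.4, 459.5 and 1113.0 in NOD S+ cells and 777.4, 2294.4 and 1771.3 in B10 S+ cells, with NOD replicate 3 above B10 replicate 1. Without the 3 arrays of high ratio the strain differences of Psmb8, Psmb9 and Psmb10 in S+ cells were -0.43, -0.55 and -0.47. That fit held NOD S+ replicate 3 alone. With the 3' to 5' ratio as a covariate they were -0.82, -0.83 and -0.73 and none was called. Pomp in S- cells kept its call without the 3 arrays (limma adjusted p = 0.0307) and with the covariate (limma adjusted p = 0.019). With day as a block none of the 4 was called, and Pomp had -0.71 (limma adjusted p = 0.41). In the S+ comparison 2 of 6 dendritic cell and macrophage markers (median 1.30) and 4 of 12 cycling-cell markers (median 0.87) were higher in NOD, and their part was not tested.

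Whether the change from PreS to S+ cells differed between the strains was tested directly. 0 members passed after adjustment in limma, where 0.358% of probesets did, and 5 were lower at an unadjusted p under 0.05 (Psmd8, Psma4, Psmb4, Psmb1 and Psmd10), where 8.84% of probesets passed, with 6 in the unadjusted t-test of the methods. The 2 largest were Psmd8 at -1.27 and Psma4 at -1.23 (limma adjusted p = 0.50 and 0.40). For Psmc1 the strain difference was -0.33 (95% interval -1.15 to 0.48), for Psmd13 -0.75 (-1.57 to 0.06) and for Psmc3ip 0.06 (-0.88 to 1.00), intervals that leave room for sizable differences. The median over the members was -0.36 with all arrays and -0.03 without the 3 of high ratio, which left a single NOD S+ array.

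The strain difference in S- against S+ cells, the contrast for the response to self antigen, had 0 members past the adjusted threshold in limma, where 0.148% of probesets passed. At an unadjusted p under 0.05, 1 was lower (Psmc6, at -1.17 with a 95% interval of -2.23 to -0.11), where 7.71% of probesets passed, and the unadjusted t-test of the methods had 2. The other of the 2 largest was Psmb3 at -1.09 (limma adjusted p = 0.72). Psmd13, at 0.95 in B10 and 0.96 in NOD, differed between the strains by 0.01 (95% interval -0.93 to 0.94). The median was 0.02 with all arrays and -0.33 without the 3 of high ratio, which left a single NOD S+ array.

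PreS cells of TCR insHEL mice were compared with those of TCR mice, since both were merged above. In B10 0 members and 0% of probesets passed after adjustment in limma, and 0 members passed unadjusted, where 2.24% of probesets did, or by the t-test. In NOD 0 members passed after adjustment, where 0.0312% of probesets did, and 5 were higher in insHEL mice at an unadjusted p under 0.05 (Psmb1, Psmg4, Psma2, Psma7 and Psma5), where 10.4% of probesets passed, with 6 in the unadjusted t-test. The largest estimates were those of Psmd6 (-0.56) and Psmd9 (-0.41) in B10 and of Psmb3 (0.93) and Psmb7 (0.91) in NOD, with a limma adjusted p = 1 for both in B10 and 0.52 and 0.53 in NOD. The median was -0.02 in B10 (-0.34 within day 5) and 0.33 in NOD (0.14 within day 4).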

How the data were processed

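Sorted thymocytes of 2 strains were measured on 24 Affymetrix MOE430A arrays. The authors hybridized the arrays, of 1 lot, on 9 days and deposited MAS5 signal intensities, linear and scaled to a trimmed mean of 150 per array. Their precision is limited by the number of arrays (3 or 6 a group). Here 64 control probesets were dropped, 33 values of 0 set to 0.1, and log2 values standardized per array and put back on a common scale. Of 22626 probesets, 12838 with a signal of at least 32 on all 3 arrays of at least 1 group were kept. Signals printed are those deposited; differences are on the standardized log2 scale. Gene symbols came from the platform annotation, updated through RefSeq gene identifiers (20380 probesets had 1 symbol, 691 several and 1555 none). The tests were made in limma (version 3.58.1, under R 4.3.3), fitting a strain by itself for its own populations, the PreS groups merged, and the 24 arrays at once between strains, with Benjamini-Hochberg adjustment over all kept probesets at 0.05, and the fits were tested on simulated data. The methods describe the 3 arrays of a group as independent pools of mRNA, and p-values measure the spread between them. The members, gene lists and tests were chosen with earlier results of these data known. Named were the cleaving subunits, called members (largest first), the 2 largest estimates where none was called, and the lowest and highest of each role in B10 S+; other genes were named after their values were seen. Replicate numbers were not taken to pair arrays. The mean correlation of deviations was 0.0356 over 84 pairs of the same number and -0.0185 over 168 pairs of other numbers. Pairs of the same number ran from -0.32 to 0.63, so pairing of some arrays is not excluded. Alternatives were other scalings, no filter, the methods' t-test, blocks of replicate or day, arrays left out and the 3' to 5' ratio as a covariate. The methods ask for an overall F-test before the t-test. No F-test result is given here, so the t-test counts are not the study's own calls. Present calls and probe-level data were not used here.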

Additional observations from a re-analysis of the deposited data

Results flagged for a closer look

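In 34 groups tested for an array far from the others, 2 values were found, both in B10 PreS TCR replicate 3, and chance gives about 1 in 20. The median level of the 43 genes on that array was 0.3131 above the mean of B10 PreS cells on the log2 scale, where the other 5 B10 PreS arrays lay between -0.19 and -0.01. Psmc3ip had a level of 7.343 on the same array (log2, standardized), from a signal of 151.3 where the next was 116.3.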

How the results depend on the processing

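No called difference changed sign under any alternative run, and each member called after adjustment in S+ or S- against PreS cells was lower in the alternatives too. Numbers of members called are given in the order B10 S+, B10 S-, NOD S+ and NOD S- against PreS, where the values reported were 5, 2, 15 and 1. They were 5, 1, 12 and 1 with MAS5 scaling only, 5, 1, 13 and 2 after quantile normalization, 3, 1, 6 and 0 without a filter, 7, 1, 10 and 1 by the methods' t-test after adjustment and 12, 3, 26 and 13 without it. With the replicate block they were 7, 2, 16 and 2, plus 3 between strains in S+, and with day as a block 1, 0, 0 and 0, plus 2 for insHEL in NOD PreS cells. The alternatives on the ratio were chosen after seeing the data: without the 3 arrays of highest ratio the counts were 5, 2, 0 and 3, and with the ratio as a covariate 7, 2, 15 and 7, plus 1 between strains in S-. The 3 arrays left out were all of NOD. B10 was fitted by itself, so its counts of 5 and 2 could not change without them. The share of all probesets called is not given beside most of these counts. By the unadjusted t-test the other comparisons had 4 (B10 S- against S+), 1 (NOD S- against S+), 2, 13 and 5 (strains in PreS, S+ and S-), 6 and 2 (strain difference in S+ against PreS and in S- against S+), 0 (insHEL in B10) and 6 (insHEL in NOD).

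Leaving out each array in turn gave 1 to 6 calls in B10 S+, 1 to 2 in B10 S-, 1 to 22 in NOD S+, 0 to 3 in NOD S-, 0 to 13 between strains in S+ and 0 to 3 for the strain difference in S+ against PreS, and 0 in the other comparisons. In B10 S+ there was 1 call without its replicate 1 and 3 without its replicate 2 or PreS TCR replicate 3, and in NOD S+ there was 1 without replicate 1 or 2, 22 without replicate 3, and 6, 7 and 6 without PreS TCR replicate 3 and PreS TCR insHEL replicates 2 and 3. In B10 S- there was 1 call without any single S- array, S+ replicate 1, any PreS TCR array or PreS TCR insHEL replicate 2 or 3. In NOD S- there were 0 without any single S- array, 3 without PreS TCR replicate 1 and 2 without PreS TCR insHEL replicate 3 or S+ replicate 3. The 13 and 3 between strains were without NOD S+ replicate 3, and without B10 S+ replicate 1 there were 2 in S+. The cause was not tested. Calls among all probesets are not given for these fits, so the counts cannot be set against a background. The number of 3 arrays in a group, and in NOD S+ the 2 arrays of high ratio, limit every result for that population.

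The median of the members moved by more than the spread in a few comparisons. It became -0.36 in NOD S- after quantile normalization. With day as a block it was 0.00 in B10 S-, 0.29 in B10 S- against S+, -0.34 for insHEL in B10 and 0.14 in NOD. Without the 3 arrays, which left a single NOD S+ array, it was -0.31 in NOD S+ and -0.10 in NOD S- against S+. It was then -0.03 and -0.33 for the 2 strain differences. With the covariate it was 0.04 in NOD S- against S+. With MAS5 scaling only, the median of all probesets was 0.11, 0.16 and 0.18 in B10 S+, NOD S+ and NOD S-, and 1106 were higher and 833 lower in NOD S+ (787 and 1112 as reported) and 997 and 579 in NOD S- (708 and 729). The medians of the members were then -0.33, -0.67 and -0.43.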
